A study of Homo sapiens with 6 samples.

Results

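Messenger RNA levels in 6 libraries of L3.6pl cells are described for 6 genes that tumour necrosis factor or the transcription factor NF-kB is known to induce. They were LCN2, TNFAIP2, SOD2, TNFAIP8, CSF2 and CSF3, found by symbol among 23245 rows with a gene symbol. The 6 were picked because earlier results of these libraries showed such genes at lower levels in some cases and at higher levels in others. Their differences between the groups are therefore descriptions and carry no test.

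L3.6pl is an established human pancreatic cancer line. The labels name 3 ARID1A-deficient libraries, titled ARID1Ako and so marked as knockout, and 3 parental libraries with the genotype WT. All cells grew in MEM with fetal calf serum, and the series' design text calls the condition treatment-naïve. The labels do not say how ARID1A was disrupted, whether the ARID1A-deficient cells are 1 clone, or whether the 3 libraries of a group are separate cultures, so p-values measure only the spread between these libraries. Levels are in FPKM, mapped fragments per transcript length and library size.

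NF-kB is a family of dimeric transcription factors held in the cytoplasm by inhibitor proteins of the IkB family. Ligands such as tumour necrosis factor and interleukin 1 activate a kinase complex that marks the inhibitors for breakdown, and the freed dimers then switch on genes of inflammation, survival and their own inhibition. In carcinoma cells the pathway is known for the secretion of cytokines that attract and expand myeloid cells. The members fall into 4 roles. LCN2 encodes a secreted lipocalin that binds iron-loaded bacterial siderophores. TNFAIP2 and TNFAIP8 are named for induction by tumour necrosis factor, the first for a protein of membrane protrusions and the second for a lipid-binding survival protein of the TIPE family. SOD2 encodes the manganese superoxide dismutase of mitochondria. CSF2 and CSF3 encode the myeloid growth factors GM-CSF and G-CSF.

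LCN2 and TNFAIP2 had the largest gaps between the groups on the log2(FPKM + 1) scale, so the sequences at their starts are shown. Each window runs from 250 bases before to 50 bases after the annotated start, 5′ to 3′ on the gene's strand, and comes from RefSeq on GRCh38.p14. Capitals mark matches to the motifs searched on both strands. In LCN2, at chr9:128149203-128149502 on the plus strand, the first capital run matches the NF-kB consensus, the second TTNNGCAA (a C/EBP-type motif) and the third TGANTCA (an AP-1-type motif). In TNFAIP2, at chr14:103123211-103123510 on the plus strand, the 1 run matches TTNNGCAA.
LCN2: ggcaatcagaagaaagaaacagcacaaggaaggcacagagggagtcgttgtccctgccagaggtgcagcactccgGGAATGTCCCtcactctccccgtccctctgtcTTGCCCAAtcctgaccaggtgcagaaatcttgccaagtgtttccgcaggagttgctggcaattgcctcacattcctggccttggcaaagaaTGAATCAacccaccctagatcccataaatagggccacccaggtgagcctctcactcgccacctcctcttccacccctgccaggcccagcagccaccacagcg
TNFAIP2: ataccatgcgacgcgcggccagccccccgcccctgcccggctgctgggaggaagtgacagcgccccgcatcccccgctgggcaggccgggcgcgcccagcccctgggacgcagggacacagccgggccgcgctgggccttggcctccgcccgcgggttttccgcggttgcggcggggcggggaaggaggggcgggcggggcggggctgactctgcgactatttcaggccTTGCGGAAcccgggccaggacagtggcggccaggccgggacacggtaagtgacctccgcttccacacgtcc

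The NF-kB consensus match in LCN2 began at position -175 relative to the start, and the runs do not overlap. The set of RefSeq windows used here covered 5 of the 6 members, with 10 windows in all. It held none for CSF3, which was therefore not searched. The consensus matched 1 of the 10 windows, that of LCN2, against 11.3% of 35116 human windows of the same length. TTNNGCAA matched 4 of the 10, and 10.5% of all, and TGANTCA matched that of LCN2 and 7.71% of all. A stricter NF-kB motif was also searched, and it matched none of the 10 windows and 1.91% of all. TATAAA matched in 1 TNFAIP8 window and in 11.5% of all. These matches are letters in a window and show no binding, and a window without a match may still hold a site of another sequence.

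ARID1A itself, whose product is part of SWI/SNF chromatin remodellers, was at 3.55, 3.28 and 3.61 FPKM in ARID1A-deficient libraries 1 to 3 and 11.8, 6.76 and 9.42 FPKM in parental libraries 1 to 3. It fell 2.68-fold (limma adjusted p = 0.0061, on log2(FPKM + 1) with Benjamini-Hochberg adjustment over 12826 genes). Library sums lay between 576084 and 792187 FPKM, the highest in parental library 2. Fragment totals are not used here, and estimated depths ran from 0.732 to 1.27 times that of parental library 1. The epithelial markers EPCAM, KRT8, KRT18 and KRT19 were each at 187 FPKM or more in every library, and the 6 epithelial markers summed to 2670 to 3417 FPKM in ARID1A-deficient libraries and 3963 to 6119 FPKM in parental libraries. Of the 6, CLDN4, a tight junction gene, was the 1 that limma called, and it rose 3.62-fold (limma adjusted p = 7.9e-05). It measured 17.6, 21.6 and 19.8 FPKM in ARID1A-deficient libraries and 5.54, 5.31 and 5.42 FPKM in parental libraries. The other 5 did not pass but had lower means in ARID1A-deficient cells. Their log2 differences were -0.365 for EPCAM, -0.709 for KRT8, -0.425 for KRT18, -0.768 for KRT19 and -0.431 for CDH1. Quantile normalization gave 4 lower calls, leaving out parental library 2 gave 3, and the replicate number as a block gave 5. None was called lower with another single library left out. Of 12 leukocyte markers, 6 were at 0 in all 6 libraries, among them MPO, ELANE and ITGAM, and the summed level was 5.98 to 7.77 FPKM in ARID1A-deficient libraries and 8.51 to 9.87 FPKM in parental libraries, nearly all of it CD68. Of 9 fibroblast markers, DCN and LUM were at 0 throughout, and the sum was 39.5 to 50.2 FPKM in ARID1A-deficient libraries and 19 to 22.2 FPKM in parental libraries, nearly all of it COL1A1. The 5 endothelial markers summed to 8.66 to 9.23 FPKM in ARID1A-deficient libraries and 8.45 to 10 FPKM in parental libraries, most of it CDH5. In these non-epithelial lists limma called COL1A1 higher, 2.14-fold (adjusted p = 0.00149), and this held when each library was left out. CD68 and the endothelial PECAM1 were called lower, 1.42-fold and 1.63-fold (limma adjusted p = 0.0346 and 0.0254). Both lower calls ended without ARID1A-deficient library 1 or 3 or parental library 1 or 3, and that of PECAM1 also without ARID1A-deficient library 2. The part of these markers in the results below was not tested.

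LCN2 measured 1.57, 1.59 and 0.928 FPKM in ARID1A-deficient libraries 1 to 3 and 29.8, 43.3 and 35.1 FPKM in parental libraries 1 to 3. All ARID1A-deficient values lay below all parental ones, and the closest values of the groups were 3.57 apart on the log2(FPKM + 1) scale. It averaged 1.37 ± 0.379 FPKM in ARID1A-deficient cells and 36.1 ± 6.81 FPKM in parental cells (SD, n = 3 each), and so was 26.4-fold lower. In bulk RNA, fewer cells expressing a gene and less RNA per cell cannot be told apart.

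TNFAIP2 measured 3.6, 3.8 and 4.41 FPKM in ARID1A-deficient libraries 1 to 3 and 50.7, 44.7 and 46.7 FPKM in parental libraries 1 to 3. The groups did not overlap here either, and averages of 3.93 ± 0.421 FPKM in ARID1A-deficient cells and 47.3 ± 3.09 FPKM in parental cells (SD, n = 3 each) put it 12-fold lower. The fold was larger for LCN2 than for TNFAIP2 in these libraries, which was not tested. The ratio of TNFAIP2 to LCN2 was 2.28, 2.38 and 4.75 in ARID1A-deficient libraries and 1.7, 1.03 and 1.33 in parental libraries, without overlap. ARID1A-deficient library 3 had the lowest LCN2 and the highest TNFAIP2 of its group.

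TNFAIP8 was lower by a much smaller amount. It measured 5.7, 4.12 and 4.15 FPKM in ARID1A-deficient libraries 1 to 3 and 6.91, 6.72 and 7.57 FPKM in parental libraries 1 to 3. The groups did not overlap, but ARID1A-deficient library 1 stood nearer to the parental values than to the other libraries of its group on the log2(FPKM + 1) scale, where the closest values of the groups were 0.205 apart. It averaged 4.66 ± 0.904 FPKM in ARID1A-deficient cells and 7.06 ± 0.443 FPKM in parental cells (SD, n = 3 each), a 1.52-fold lower level.

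SOD2 measured 66.5, 68.5 and 63.8 FPKM in ARID1A-deficient libraries 1 to 3 and 53.4, 63 and 59.1 FPKM in parental libraries 1 to 3. The lowest ARID1A-deficient value, in library 3, was just above the highest parental value, in library 2, a gap of 0.0164 on the log2(FPKM + 1) scale. It averaged 66.2 ± 2.37 FPKM in ARID1A-deficient cells and 58.5 ± 4.84 FPKM in parental cells (SD, n = 3 each), a 1.13-fold higher level and a difference of 0.18 on the log2(FPKM + 1) scale. It was the most abundant member in both groups.

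CSF3 measured 2.82, 4.1 and 4 FPKM in ARID1A-deficient libraries 1 to 3, against 0, 0 and 0.0503 FPKM in parental libraries 1 to 3. It was thus measurable in all ARID1A-deficient libraries and listed at 0 in 2 of the 3 parental ones, which leaves no fold to give. The difference of mean log2(FPKM + 1) was 2.18.

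CSF2 measured 0, 0.154 and 0 FPKM in ARID1A-deficient libraries and 0.112, 0 and 0 FPKM in parental libraries. The groups overlapped, with 1 value above 0 in each. The ratio of these 2 values was 1.37, and the estimated depths of the 2 libraries also differed by 1.37, as for rows holding equal numbers of fragments. The depths were estimated from rows this low, CSF2 among them, so the match is no separate check. With 1 value above 0 in each group, the data give no direction for CSF2.

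**Figure D1:**
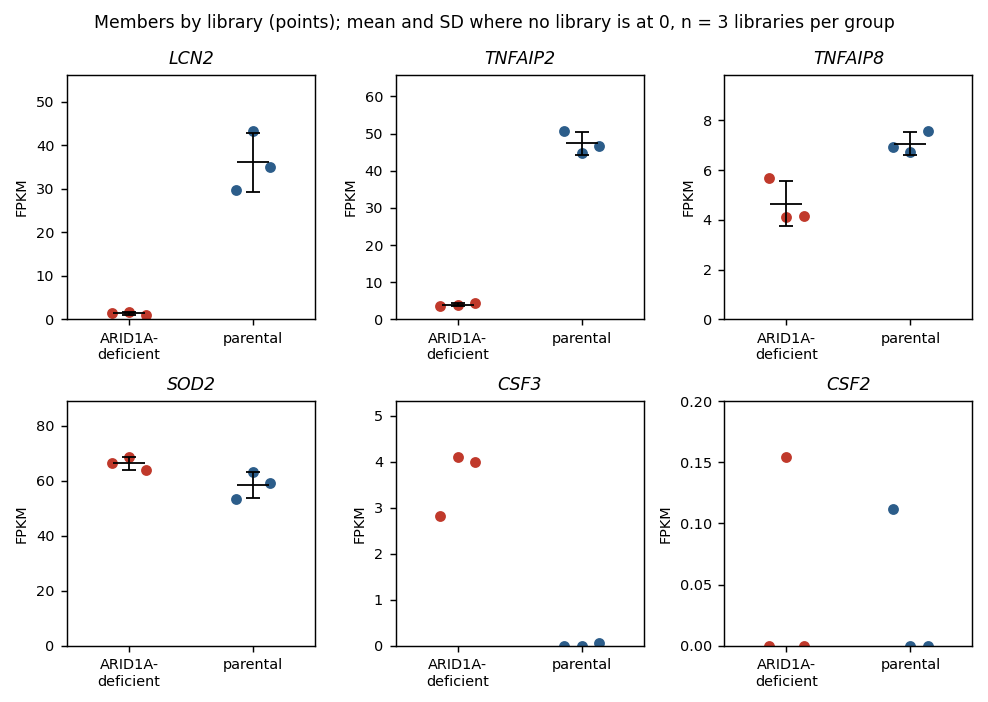
FPKM of each member by library, with ARID1A-deficient libraries on the left and parental libraries on the right of each panel and the mean and SD (n = 3 each) where no library is at 0; each vertical axis starts at 0 and has its own scale. LCN2 and TNFAIP2 lie far apart between the groups, TNFAIP8 and SOD2 differ by little, CSF3 is measurable in ARID1A-deficient libraries, and CSF2 has a single value above 0 in each group.

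Of the 6 members, 3 were lower and 2 higher without overlap of the groups. Among all tested genes, 18.6% were lower and 16.7% higher in that way, 35.3% in all, and since the members were picked on this contrast nothing is read from their count. A mean of at least 0.5 FPKM over all libraries was needed for testing, which 5 members reached and CSF2 did not. CSF3 reached it through its ARID1A-deficient values. The order of levels also differed. In ARID1A-deficient cells SOD2 stood alone at the top, followed by TNFAIP8, TNFAIP2 and CSF3, whose ranges overlapped from one to the next, and then LCN2. In parental cells the order was SOD2, TNFAIP2, LCN2 and TNFAIP8, with no overlap between neighbours in that order, and CSF2 and CSF3 came last at or near 0. The ratio of TNFAIP2 to TNFAIP8 was 0.631, 0.922 and 1.06 in ARID1A-deficient libraries and 7.34, 6.64 and 6.17 in parental libraries, so the 2 genes named for the same cytokine were near each other in level in ARID1A-deficient cells and well apart in parental cells.

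The other listed genes of the pathway were higher more often than lower. The lists were chosen with earlier results of these data known, so these shares describe the listed genes and do not test the pathway. Of 123 listed genes from ligands to targets, 88 were tested, and 23 rose (26.1%), 4 fell (4.55%) and 61 did not pass the limma threshold of 0.05. Over all 12826 genes tested, 7.82% rose and 8.11% fell, 15.9% in all. The median log2 difference was 0.10 for the 88 genes and -0.01 for all tested genes. Of the 27 calls, 16 higher and 2 lower ones held when each library was left out in turn. Among the higher ones that held, IL33, CCL2 and ICAM1 reached the level for testing only through their ARID1A-deficient values. Their parental means were 0.139, 0.0512 and 0.163 FPKM, and with a minimum mean of 3 FPKM they were no longer called. The count of genes that fell was 2 without ARID1A-deficient library 2 or 3 or parental library 3, and 9 without parental library 2. With upper quartile scaling, 60.1% of all called genes were higher, against 49.1% without it, while the pathway counts were 25 higher and 4 lower.

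**Figure D2:**
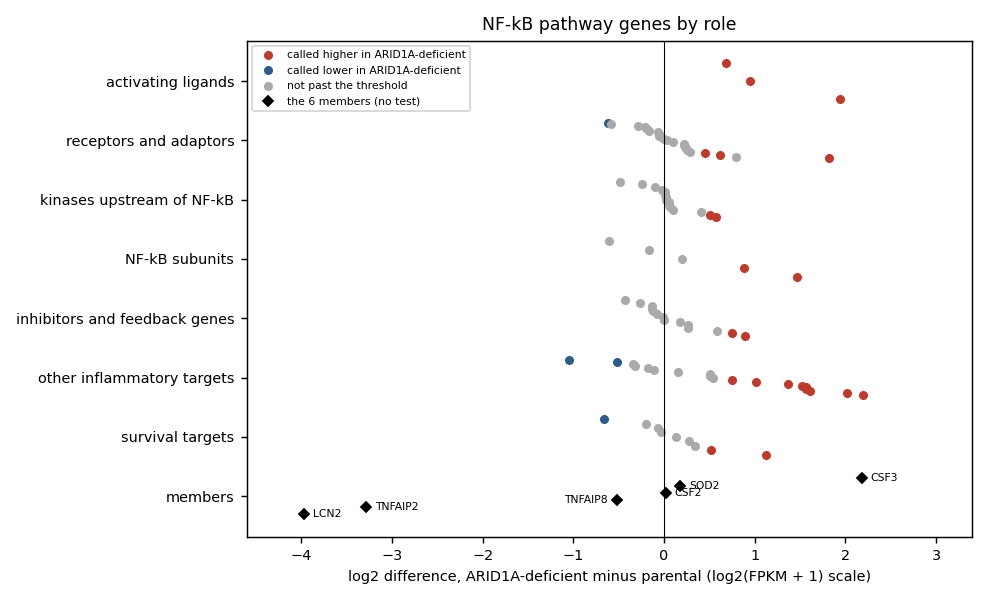
Log2 difference (ARID1A-deficient minus parental, log2(FPKM + 1) scale) of each tested pathway gene by role, coloured by its limma call, with the 6 members as diamonds below. Among these genes, listed with earlier results of the data known, calls higher in ARID1A-deficient cells outnumber calls lower, 23 to 4. LCN2 and TNFAIP2 lie outside the range of the other pathway genes on the lower side.

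Among the activating ligands, TNFSF10, which encodes the death ligand TRAIL, rose 4.06-fold to 51.8 ± 5.26 FPKM in ARID1A-deficient cells, against 12.8 ± 0.159 FPKM in parental cells (SD, n = 3 each; limma adjusted p = 4.01e-05). The interleukin 1 family gene IL33 measured 1.24, 1.29 and 1.04 FPKM in ARID1A-deficient libraries and 0.22, 0.167 and 0.0302 FPKM in parental libraries, and rose as well (limma adjusted p = 0.00137). IL18, of the same family, rose 1.61-fold, a call that ended without any single library but parental library 2 (highest limma adjusted p = 0.147). The other 10 of 13 ligands were below the level for testing. TNF, LTA and LTB, the tumour necrosis factor gene and its relatives, were listed at 0 in all 6 libraries.

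Those zeros cannot be read as silent genes. In RefSeq order the 3 genes lie on chromosome 6 between HLA-F and TAPBP, where 148 of 163 rows (90.8%) were at 0 in every library, against 23.3% of all rows. The survival target IER3 and the complement gene CFB lie there too. The GM-CSF receptor gene CSF2RA and IL3RA lie between PLCXD1 and CD99 on chromosome X, where all 19 rows were at 0 in every library, SLC25A6 and CD99 among them, 2 genes that cells generally express. CSF2RB and CSF3R, the other receptor genes for the 2 growth factors, lie elsewhere and were also listed at 0 in all 6 libraries. RNA of the ligand CSF3 was thus measurable in ARID1A-deficient cells, and that of its receptor was listed at 0.

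Of 29 receptors and adaptors, 23 were tested, of which 3 rose, 1 fell and 19 did not pass. BIRC3, a ubiquitin ligase that is itself an NF-kB target, rose 5.02-fold to 8.41 ± 0.638 FPKM in ARID1A-deficient cells, against 1.68 ± 0.198 FPKM in parental cells (SD, n = 3 each; limma adjusted p = 8.16e-05). RIPK1, a kinase of the receptor complex, and IRAK2, a kinase of interleukin 1 signalling, rose 1.44-fold and 1.67-fold, and the death receptor gene TNFRSF21 fell 1.57-fold. The last 3 calls each ended when single libraries were left out, with highest limma adjusted p of 0.102, 0.16 and 0.137. Only BIRC3 rose and no gene fell without ARID1A-deficient library 1, 2 or 3 or parental library 3. The count was 6 higher and 2 lower without parental library 2, and none fell without parental library 1. TNFRSF1A, the main receptor for tumour necrosis factor, measured 72.6, 86.9 and 81.8 FPKM in ARID1A-deficient libraries and 74, 95 and 78.3 FPKM in parental libraries (limma adjusted p = 0.911).

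The kinases upstream had 2 of 15 higher and none lower, and 13 did not pass. MAP3K8 rose 2.19-fold (limma adjusted p = 0.0101), and MAP3K14, the NIK kinase of the non-canonical branch, rose 1.54-fold (limma adjusted p = 0.0227). The MAP3K8 call ended without parental library 3, and the MAP3K14 call without ARID1A-deficient library 2 or 3 or parental library 1 or 3 (highest limma adjusted p = 0.0548 and 0.0994). Without parental library 2, 1 kinase gene was lower.

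The 5 NF-kB subunits differed among themselves. RELB rose 4.21-fold, with 3.94, 6.59 and 5.43 FPKM in ARID1A-deficient libraries and 1.04, 1.57 and 1.18 FPKM in parental libraries (limma adjusted p = 0.00228). NFKB2, whose product pairs with RELB in the non-canonical branch, rose 1.88-fold, with 30.9, 39.1 and 37.2 FPKM in ARID1A-deficient libraries and 17.9, 21.5 and 17.5 FPKM in parental libraries (limma adjusted p = 0.00436). Both calls held when each library was left out. RELA, of the canonical dimer, averaged 53 ± 4.14 FPKM in ARID1A-deficient cells and 46.3 ± 1.93 FPKM in parental cells (SD, n = 3 each; limma adjusted p = 0.239). Its partner NFKB1 averaged 13.8 ± 1.03 FPKM in ARID1A-deficient cells and 15.6 ± 2.18 FPKM in parental cells (SD, n = 3 each; limma adjusted p = 0.419), so neither passed. REL measured 0.58, 0.301 and 0.206 FPKM in ARID1A-deficient libraries and 1.45, 0.665 and 1.15 FPKM in parental libraries, and did not pass either (limma adjusted p = 0.0567), although it was called lower without parental library 2 and with quantile normalization.

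Inhibitors and feedback genes had 2 of 14 tested genes higher and none lower, and 12 did not pass. NFKBIA, which encodes the inhibitor IkB-alpha and is a direct NF-kB target, rose 1.88-fold to 80.3 ± 3.79 FPKM in ARID1A-deficient cells, against 42.7 ± 3.67 FPKM in parental cells (SD, n = 3 each; limma adjusted p = 0.00169). PDLIM2, whose protein promotes breakdown of RELA, rose 1.69-fold (limma adjusted p = 0.0434), and this call ended without any single library but parental library 2 (highest limma adjusted p = 0.163). NFKBIZ, the atypical inhibitor known to be needed for LCN2 induction, measured 2.19, 2 and 2.36 FPKM in ARID1A-deficient libraries and 2.01, 1.23 and 1.79 FPKM in parental libraries (limma adjusted p = 0.247).

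Other inflammatory targets had 9 of 19 tested genes higher and 2 lower, and 8 did not pass. The gene ICAM1, to whose protein leukocytes adhere, was among those that rose (limma adjusted p = 2.55e-05), with 4.19, 4.43 and 4.24 FPKM in ARID1A-deficient libraries and 0.0646, 0.192 and 0.232 FPKM in parental libraries. The neutrophil chemokine IL8, the cytokine LIF and the protease inhibitor TFPI2 rose 6.25-fold, 3.08-fold and 2.88-fold (limma adjusted p = 5.26e-05, 5.47e-05 and 0.000175). The 2 that fell, named after their values were seen, were the prostaglandin E synthase gene PTGES, 2.72-fold (limma adjusted p = 0.00105), and the transcription factor gene IRF1, 1.52-fold (limma adjusted p = 0.0123). The IRF1 call ended without ARID1A-deficient library 2 or 3 or parental library 3 (highest limma adjusted p = 0.0711), and 4 genes were lower without parental library 2.

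Among 9 tested survival targets, 2 rose, 1 fell and 6 did not pass. The stress gene GADD45B rose 2.24-fold (limma adjusted p = 0.00101) and the anti-apoptotic gene MCL1 rose 1.43-fold, while the kinase gene PIM1 fell 1.69-fold (limma adjusted p = 0.00307). The MCL1 call ended without any 1 ARID1A-deficient library or parental library 3 (highest limma adjusted p = 0.0868), and 4 survival genes were higher without parental library 2.

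Enzymes of the same pathway as SOD2 and partners of LCN2 were counted in the same way, in lists also chosen with earlier results known. Over all tested genes 7.82% rose and 8.11% fell. Of 14 tested antioxidant enzymes, none rose and CAT, the gene for catalase, which breaks down the hydrogen peroxide that superoxide dismutases make, fell 1.31-fold (limma adjusted p = 0.0262). That call ended without any single library but parental library 2 (highest limma adjusted p = 0.13), and 6 enzyme genes rose without parental library 2. SOD1, the cytosolic superoxide dismutase gene, measured 334, 383 and 338 FPKM in ARID1A-deficient libraries and 262, 385 and 317 FPKM in parental libraries (limma adjusted p = 0.647). The ratio of SOD2 to SOD1 was 0.199, 0.179 and 0.188 in ARID1A-deficient libraries and 0.204, 0.164 and 0.186 in parental libraries, which overlap. The peroxiredoxin gene PRDX1, the most abundant of the list, averaged 1010 ± 50.3 FPKM in ARID1A-deficient cells and 864 ± 161 FPKM in parental cells (SD, n = 3 each; limma adjusted p = 0.472). The extracellular form SOD3 reached 0.0387 FPKM at most.

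Of 9 tested iron and lipocalin partners, 3 rose and 6 did not pass, against 7.82% that rose over all tested genes. The count describes the listed genes only. SLC22A17, which encodes a receptor for LCN2, rose 2.84-fold, with 2.27, 3.45 and 3.18 FPKM in ARID1A-deficient libraries and 0.838, 1.39 and 0.902 FPKM in parental libraries (limma adjusted p = 0.00869). The ligand was thus lower and this receptor higher in ARID1A-deficient cells. ACO1, an iron-sensing RNA-binding protein gene, rose 1.49-fold and the iron exporter gene SLC40A1 rose 2.12-fold. Without ARID1A-deficient library 3 or parental library 3 only 1 partner gene was higher, and the SLC40A1 call also ended without ARID1A-deficient library 1 or 2 or parental library 1. LRP2, another receptor for LCN2, reached 0.0759 FPKM at most, and 1 gene fell without parental library 2.

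The shared TNFAIP name did not go with a shared change. Of the 6 other TNFAIP-named and TIPE genes, 3 were tested and limma called 0, with 0 at an unadjusted p under 0.05. TNFAIP1, for an adaptor of a ubiquitin ligase, averaged 16.2 ± 0.744 FPKM in ARID1A-deficient cells and 16.2 ± 0.429 FPKM in parental cells (SD, n = 3 each). TNFAIP3, which encodes the NF-kB feedback inhibitor A20, measured 1.8, 1.3 and 1.53 FPKM in ARID1A-deficient libraries and 1.25, 0.791 and 1.32 FPKM in parental libraries (limma adjusted p = 0.248). TNFAIP8L1, the closest tested relative of TNFAIP8, averaged 6.76 ± 0.59 FPKM in ARID1A-deficient cells and 6.65 ± 0.985 FPKM in parental cells (SD, n = 3 each). TNFAIP8L3 reached 0.375 FPKM at most, TNFAIP8L2 0.201 FPKM at most, and TNFAIP6 was listed at 0 throughout. With no filter on low values, 1 of these genes was higher.

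Among the other myeloid growth factors and receptors, 3 of 11 were tested and limma called 0, with 1 at an unadjusted p under 0.05. FLT3LG, a growth factor gene for dendritic cell precursors, measured 2.41, 3.8 and 3.43 FPKM in ARID1A-deficient libraries and 5.13, 10.3 and 5.26 FPKM in parental libraries, and was called lower only without parental library 2 among the fits that leave out a library. CSF1, the macrophage growth factor gene, measured 0.712, 0.795 and 0.978 FPKM in ARID1A-deficient libraries and 0.894, 0.664 and 1.3 FPKM in parental libraries. IL3, the gene next to CSF2, was listed at 0 throughout.

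Of 16 tested transcription factors known to act at the member genes, 4 fell (25%), none rose and 12 did not pass. Over all tested genes 8.11% fell and 7.82% rose. The list was chosen with earlier results of these data known, so its counts describe the listed genes only. ELF3, an epithelial ETS factor known to activate LCN2, fell 5.34-fold, with 21.4, 24.6 and 22 FPKM in ARID1A-deficient libraries and 114, 130 and 119 FPKM in parental libraries (limma adjusted p = 2.23e-05). The AP-1 subunit gene FOS fell 4.46-fold, with 16.5, 16.7 and 18.9 FPKM in ARID1A-deficient libraries and 83.2, 70.4 and 79.1 FPKM in parental libraries (limma adjusted p = 3.87e-05). JUN, its AP-1 partner, and RARA, a retinoic acid receptor gene, fell 1.36-fold and 1.54-fold. Both of these calls ended without any 1 ARID1A-deficient library or parental library 3, and that of JUN also without parental library 1 (highest limma adjusted p = 0.109 and 0.117), which leaves ELF3 and FOS. JUNB, another AP-1 subunit gene, averaged 50.5 FPKM in ARID1A-deficient cells and 34.3 FPKM in parental cells, and did not pass (limma adjusted p = 0.0527). Among the fits that leave out a library, it was called higher only without parental library 2. FOSL1, also of AP-1, did not pass (limma adjusted p = 0.912). CEBPB and CEBPD, the C/EBP genes of the acute phase, and STAT3 did not pass (limma adjusted p = 0.827, 0.868 and 0.997).

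**Figure D3:**
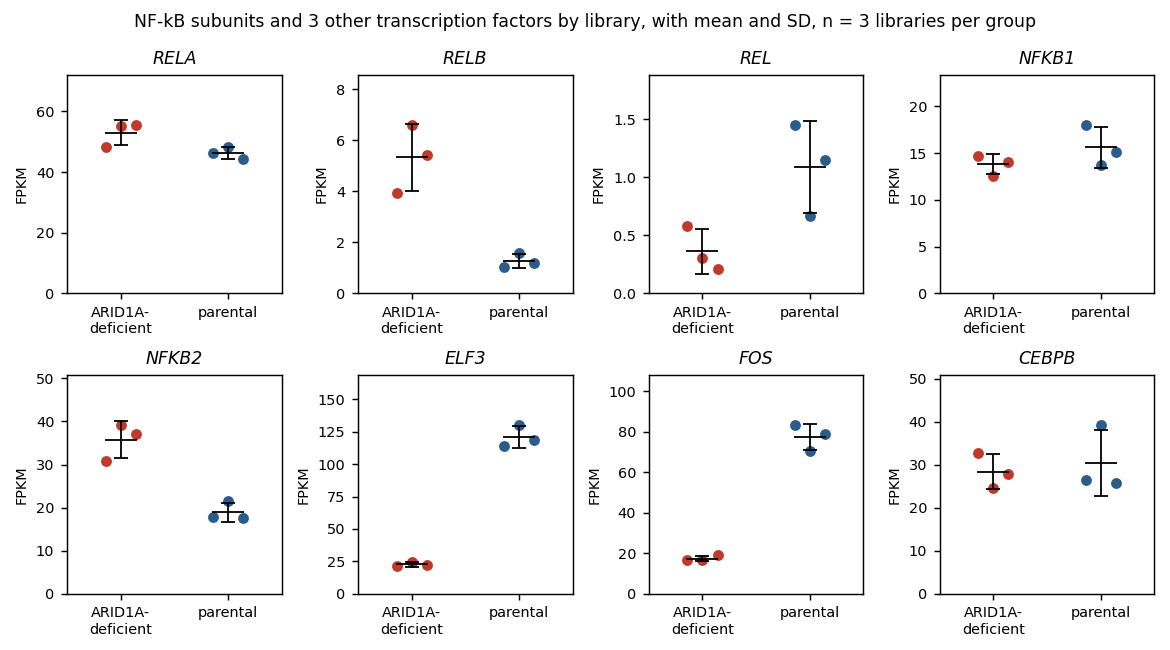
FPKM by library of the 5 NF-kB subunits and of ELF3, FOS and CEBPB, with ARID1A-deficient libraries on the left and parental libraries on the right, and mean and SD (n = 3 each). RELB and NFKB2 are higher and ELF3 and FOS lower in ARID1A-deficient libraries, while the ranges of NFKB1 and CEBPB overlap between the groups. RELA lies higher and REL lower in ARID1A-deficient libraries, also without overlap, but neither passed the limma threshold.

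The genes most like each member were those at the smallest Euclidean distance over the 6 libraries, after each gene's log2(FPKM + 1) values were centred on their mean. For LCN2 they were SLC16A5, KRT13 and MUC5B (distances 0.683, 0.739 and 0.851). For TNFAIP2 they were MUC5B, SLC16A5 and H19 (0.33, 0.446 and 0.452), so MUC5B, a gel-forming mucin gene, and SLC16A5, a monocarboxylate transporter gene, stood near both. For CSF3 they were TCN1, a vitamin B12 carrier gene, the collagen gene COL9A3 and ICAM1 (0.29, 0.301 and 0.321). TCN1 measured 4.14, 4.41 and 4.33 FPKM in ARID1A-deficient libraries and 0.144, 0.184 and 0.141 FPKM in parental libraries. For SOD2 they were ZFYVE21, DCUN1D5 and the chaperonin gene CCT5 (0.0436, 0.05 and 0.0561). For TNFAIP8 they were SNAPC1, TADA2A and ETAA1 (0.106, 0.111 and 0.111). For CSF2 they were IKBKG, ZSWIM3 and ZNF766 (0.0725, 0.0906 and 0.0945), which carries little meaning since CSF2 had 1 value above 0 in each group. The members' own distances from a flat profile were 4.88 for LCN2, 4.04 for TNFAIP2, 2.69 for CSF3, 0.721 for TNFAIP8, 0.285 for SOD2 and 0.211 for CSF2. The distances above are therefore not comparable between members. Genes nearest LCN2, TNFAIP2 and CSF3 shared the direction of the group difference, the contrast on which the members were picked.

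The chromosomal neighbours of the members differed by locus. Among the 2 nearest tested genes on each side of each member, 24 genes in RefSeq order on GRCh38, 1 rose and 1 fell. Over all tested genes 7.82% rose and 8.11% fell. Around LCN2 on chromosome 9, PTGES2, SLC25A25, C9orf16 and CIZ1 had log2 differences between -0.28 and 0.23, against -3.97 for LCN2. Around TNFAIP2 on chromosome 14, TRAF3, CDC42BPB and EIF5 had 0.22, -0.22 and 0.11, against -3.29 for TNFAIP2. The small nucleolar RNA row SNORA28 beside them was above 0 only in ARID1A-deficient library 3 and did not pass limma (adjusted p = 0.569).

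The 4 genes nearest SOD2 on chromosome 6 all had higher mean levels in ARID1A-deficient cells. RSPH3, C6orf99, WTAP and ACAT2 had log2 differences of 0.36, 0.31, 0.33 and 0.33, and SOD2 itself 0.18. WTAP, for a subunit of the RNA methylation complex, rose 1.27-fold (limma adjusted p = 0.0481), a call that ended without any single library but parental library 2 (highest limma adjusted p = 0.17). Over the 20 tested genes on each side, a window set after the values were seen, the median was 0.32, with 9 of 40 genes higher and none lower. All tested genes had a median of -0.01, with 7.82% higher and 8.11% lower. The SOD2 difference was thus smaller than the median of its own stretch. In RefSeq on GRCh38 the SOD2 gene overlaps WTAP and ACAT2, and reads of overlapping genes are not told apart by a kit without strand marks. The deposited values were made on GRCh37 with an annotation that is not named. Whether the gene models behind them overlapped is therefore not known, and sharing of reads was not tested.

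CSF3 on chromosome 17 differed in direction from most genes beside it. ORMDL3, PSMD3 and MED24 beside it had log2 differences of -0.45, -0.20 and -0.25. The small nucleolar RNA row SNORD124 had 0.15, with 30.6 FPKM in ARID1A-deficient library 2, 22.3 FPKM in parental library 1 and 0 elsewhere. The median over 40 neighbours was -0.25, with 10 lower and 2 higher, against 8.11% lower and 7.82% higher over all tested genes. ORMDL3 fell 1.38-fold (limma adjusted p = 0.0215), a call that ended without any 1 ARID1A-deficient library or parental library 3 (highest limma adjusted p = 0.0944). TNFAIP8 and CSF2, both on chromosome 5, had medians of -0.06 and -0.05 over 40 neighbours each, while LCN2 had -0.06 and TNFAIP2 0.09. Nearest to TNFAIP8, DTWD2, DMXL1, HSD17B4 and SRFBP1 had log2 differences between -0.26 and -0.08. Nearest to CSF2, RAPGEF6, FNIP1, P4HA2 and SLC22A4 had log2 differences between -0.17 and 0.35. Limma called none of these genes.

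**Figure D4:**
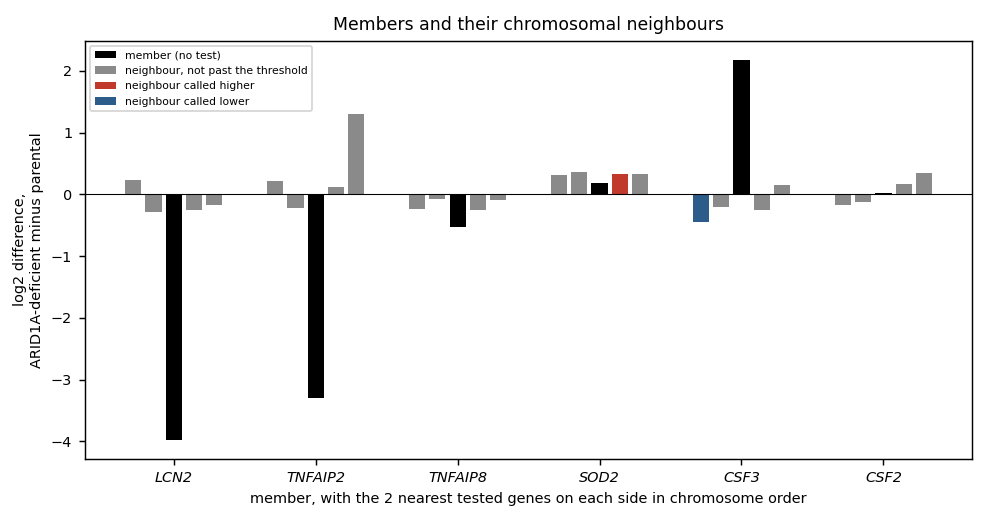
Log2 difference (ARID1A-deficient minus parental) of each member (black) and of the 2 nearest tested genes on each side in chromosome order, with called neighbours in colour. The bars of LCN2, TNFAIP2 and CSF3 are far longer than those of their neighbours apart from SNORA28, while the bar of SOD2 is shorter than those beside it.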

How the data were processed

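Per the labels' protocols, total RNA was taken with TRIzol and poly(A) RNA went into libraries of a TruSeq v2 kit, which does not mark strand. The authors deposited 1 table of FPKM values per sample. The build GRCh37 (hg19), Cuffdiff 2.2.1.5, Cuffnorm 2.2.1.2 and TopHat2 2.1.1 appear in the submitters' processing notes, without annotation, filters or scaling options. Each table had 23273 rows, of which 28 with a calendar date in place of a symbol were left out. FPKM is relative to the library, so a change in RNA per cell is not visible, and precision rests on the spread of 3 libraries per group. Depth ratios are modal ratios of rows under 0.2 FPKM in every library, in bins of 0.05 on the log2 scale.

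Groups and replicate numbers came from the titles. limma 3.58.1 (R 4.3.3), with trend and robust moderation, was fitted on log2(FPKM + 1) for the 12826 genes averaging 0.5 FPKM or more. Adjusted p-values (Benjamini-Hochberg, two-sided, threshold 0.05) cover all of them. Log2 differences understate the change of low genes, and folds are ratios of group means. No fold is given where a library is at 0.

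The members and gene lists were chosen with earlier results of these data known. Named are the members, up to 4 called genes with the smallest adjusted p per list (with under 2 called, also the most abundant), all subunits, TNFAIP-named genes, receptors of the member ligands, SOD1 and SOD3, the 3 genes most like each member, and its 2 nearest tested neighbours on each side. TNFRSF1A, NFKBIZ, CSF1, IL3, LRP2, CEBPB, CEBPD, STAT3, PTGES, IRF1, JUNB, FOSL1, CCL2, PECAM1 and CDH5 were added after their values were seen. Neighbour order covers 96.7% of tested genes. Alternatives were another pseudocount, filters, scalings, moderation, a replicate block and leaving out each library. Symbols are as deposited (IL8 for CXCL8).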

Additional observations from a re-analysis of the deposited data

How the results depend on the processing

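LCN2, TNFAIP2, TNFAIP8, SOD2 and CSF3 kept their direction under every scaling, pseudocount and left-out library tried. With a pseudocount of 0.1 the log2 difference was -4.64 for LCN2 (against -3.97), -3.56 for TNFAIP2 (against -3.29) and 5.01 for CSF3 (against 2.18), as a smaller pseudocount shrinks low values less. Leaving out each library gave -4.09 to -3.83 for LCN2, -3.36 to -3.24 for TNFAIP2, -0.65 to -0.456 for TNFAIP8, 0.115 to 0.233 for SOD2 and 2.11 to 2.31 for CSF3. CSF2 ran from -0.0512 to 0.0689 and changed sign without ARID1A-deficient library 2 (-0.0512) and without parental library 2 or 3 (-0.00789 each).

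The number of genes called among all tested was 2043, and 960 to 4113 with a library left out, highest without parental library 2; the cause was not tested. The pathway had 23 genes higher (16 to 31) and 4 lower (2 to 9). With the replicate number as a block, 4049 genes were called in all, and 30 pathway genes were higher and 11 lower. Deviations of same-numbered libraries correlated at 0.219, 0.217 and -0.0131 across genes, and not every library correlated best with its own number, so the numbers were not taken as pairs. Of 83 named genes outside the 6, 54 kept their call under every alternative that tested them, and none changed sign while called. Low values such as those of CSF2 and of genes listed at 0 are limited by depth, which is known here only as a ratio.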
